A study of Mus musculus with 51 samples.

Results

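*Olfr1295* was followed through every pS6-IP-Seq library as 1 of the 1117 odorant receptor (OR) genes in the tables, matched by its gene symbol. It was chosen because its transcripts had stood out after exposure to (methylthio)methanethiol (MTMT), a sulfur compound in the urine of male mice that attracts females. Each library came from the whole olfactory mucosa of 1 C57BL/6J mouse about 3 weeks old, from litters of mixed sex. The mouse was exposed for 1 hr to 10 μL of an odor or of diluent. The 51 libraries fall into 10 odor groups and 7 control groups of 3 libraries each.

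The odor groups were 100 μM MTMT, 10 mM MTMT, 1% 2,5-dimethylpyrazine (2,5-DMP), 100% (*E*)-β-farnesene, 1% β-caryophyllene, 77% 3,4-dehydro-*exo*-brevicomin (DHB), 3 doses of 2-*sec*-butyl-4,5-dihydrothiazole (SBT; 0.01%, 1% and 100%) and 100 mM cyclopentadecanone (CPD), a macrocyclic musk. The compounds other than CPD occur in mouse urine. One control group served 100 μM MTMT, 2,5-DMP and (*E*)-β-farnesene together, and another served 1% and 100% SBT. The study describes ethanol as the diluent of MTMT and CPD and water as that of the others, so in the shared control group odor and diluent cannot be told apart for at least one of its comparisons. Replicate libraries are separate mice, and no allele or transgene was introduced. The defining markers of olfactory neurons (*Omp*, *Gnal*, *Adcy3*, *Cnga2*) and of supporting cells (*Cyp2g1*) are not OR genes and were not analysed here.

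A mature olfactory sensory neuron (OSN) expresses one OR gene, and its odor binding decides which odors excite that cell. Excited neurons phosphorylate ribosomal protein S6 (pS6). An antibody to pS6 therefore pulls down ribosomes, with their mRNA, from recently active neurons, and the transcript of an OR whose neurons responded takes a larger share of the OR reads. A share here is the percent of a library's OR reads that one OR took. A higher share can come from stronger capture out of the same neurons, from more neurons with *Olfr1295* or from more of its RNA per neuron. In whole mucosa the share alone does not tell these apart, and which of them applied was not tested here. By staining, the paper reports that pS6 signal within *Olfr1295* neurons rose with the concentration of MTMT.

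*Olfr1295* (ENSMUSG00000108919, RefSeq synonym MOR248-10) lies on the minus strand of chromosome 2 at chr2:111561423-111569681 (GRCm38). Its coding sequence, chr2:111564507-111565442, is within a single exon and encodes 312 residues. Receptors that are alike in sequence stand beside it. The protein is 84.9% identical to *Olfr1294*, 21132 bp away, 84.6% to *Olfr1298*, 83.0% to *Olfr1302*, 81.4% to *Olfr1297* and 80.8% to *Olfr1290*, against a median of 40.3% over the 1104 OR proteins compared. The 14 other MOR248 receptors in the tables all lie within 500 kb of it, and 7 OR genes lie within 100 kb.

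Such likeness matters for counting, because a short read can fit more than one receptor. The coding windows of 75 bases below show how far *Olfr1295* and its 2 closest relatives differ, first where *Olfr1295* and *Olfr1294* are most alike and then where they are least alike. All are written 5′ to 3′ on the coding strand from GENCODE and GRCm38, with capitals at bases that differ from *Olfr1295*. The first window is chr2:111565253-111565327 in *Olfr1295*, chr2:111538098-111538172 in *Olfr1294* and chr2:111645806-111645880 in *Olfr1298*, all on the minus strand, with 3 and 5 differing bases.
Olfr1295: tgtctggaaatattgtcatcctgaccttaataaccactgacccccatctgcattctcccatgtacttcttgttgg
Olfr1294: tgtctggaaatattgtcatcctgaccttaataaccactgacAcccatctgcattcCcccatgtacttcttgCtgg
Olfr1298: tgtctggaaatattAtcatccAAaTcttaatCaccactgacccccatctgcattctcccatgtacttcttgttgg
The second window is chr2:111564765-111564839 in *Olfr1295*, chr2:111537610-111537684 in *Olfr1294* and chr2:111645318-111645392 in *Olfr1298*, with 19 and 16 differing bases.
Olfr1295: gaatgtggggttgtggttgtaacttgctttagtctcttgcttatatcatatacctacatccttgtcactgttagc
Olfr1294: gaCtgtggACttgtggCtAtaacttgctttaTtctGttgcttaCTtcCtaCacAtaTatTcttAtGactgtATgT
Olfr1298: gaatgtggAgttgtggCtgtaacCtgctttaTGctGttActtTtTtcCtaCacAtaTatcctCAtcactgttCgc

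Over the whole transcripts, 20 of 5539 stretches of 50 bases (0.361%) also occur in another gene, the pseudogene *Olfr1296-ps1*, which is not in the tables. None of the stretches of 75 bases occurs in another gene. Reads with mismatches could still have been divided among these receptors by the authors' counting.

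Some facts of the series touch every value. OR reads per library ranged from 27301 to 160001 (median 93870), and *Olfr1295* had between 35 and 630 of them. Each of the 51 pairs of replicate libraries differed by more than counting noise (chi-squared divided by its degrees of freedom, 5.22 to 28.0). Errors below are therefore taken between mice, and the 95% Wilson intervals in the plot of shares cover counting error only.

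A pair of libraries stands apart from the others of their groups, and the *Olfr1295* fold changes that rest on them are given with and without them. In the library labelled 10 mM MTMT replicate 1, *Olfr1295* took 0.0876% of the OR reads, the level of the controls. In the library labelled CPD replicate 2 it took 0.432%, the level of the other 10 mM MTMT libraries. *Olfr235* and *Olfr1440*, known with *Olfr1437* for responses to musks, were arranged the other way. In 10 mM MTMT replicate 1, *Olfr235* took 0.903%, *Olfr1440* 0.729% and *Olfr1437* 0.511%. In CPD replicate 2 the same receptors took 0.0432%, 0.0315% and 0.103%. In CPD replicate 1 they took 1.04%, 1.42% and 0.721%, and in CPD replicate 3 they took 0.426%, 0.173% and 0.0880%. The medians over the 21 controls were 0.0417%, 0.0720% and 0.0408%, although *Olfr235* reached 0.497% and *Olfr1440* 0.212% in CPD control replicate 1. *Olfr1437* did not share that arrangement fully, since in CPD replicate 2 it was above CPD replicate 3 and above the highest control (0.0814%). Both libraries carry the same title prefix in the labels. They were kept under the groups the labels give, and the reason for their values was not tested.

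**Figure D1:**
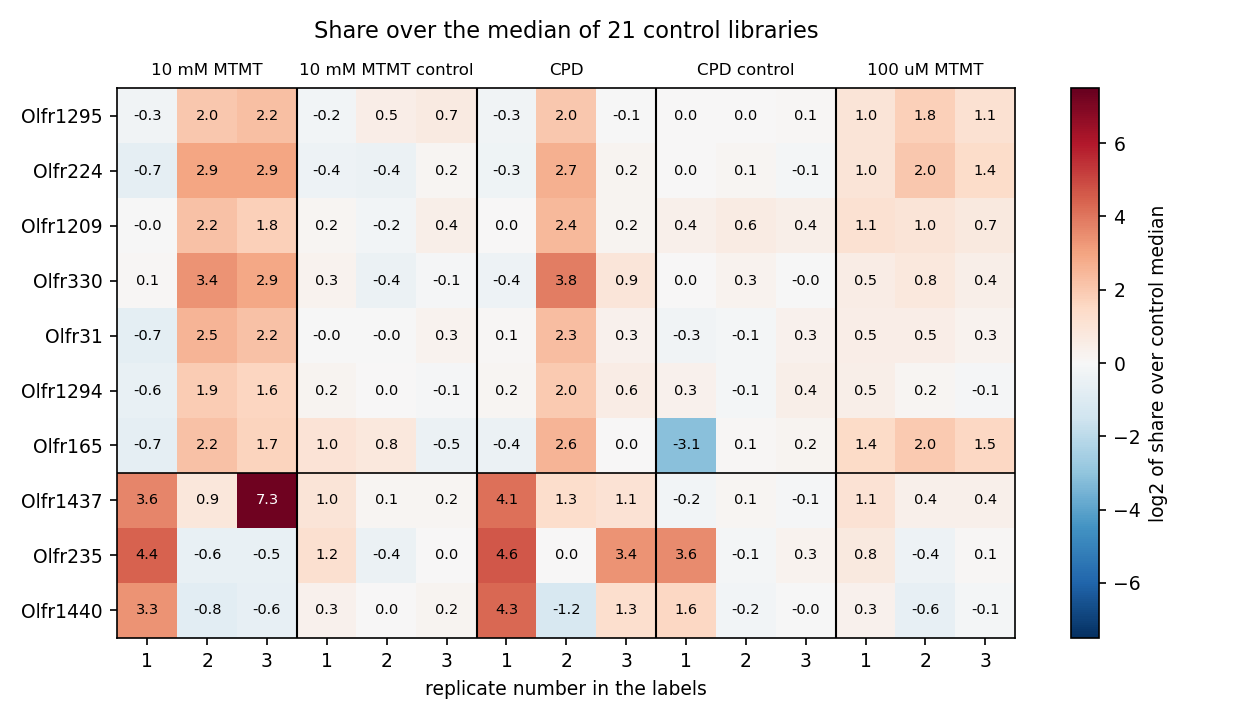
Share of OR reads of 10 receptors in the libraries of 5 groups, as log2 of the share over the median of the 21 control libraries, with the replicate number from the labels on the x axis; the lower block holds the 3 receptors known for musks. The upper block is raised in 10 mM MTMT replicates 2 and 3 and in CPD replicate 2. In 10 mM MTMT replicate 1 it is near or below the control median (Olfr31 0.0847% against 0.139%). This block includes receptors picked because their shares varied like that of Olfr1295, so their common pattern partly follows from that choice. Olfr56, not drawn, took 0.248% and 0.194% in 10 mM MTMT replicates 2 and 3. It took 0.191% in CPD replicate 2, against a control median of 0.173%.

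In diluent-exposed mice the share of *Olfr1295* ranged from 0.0637% to 0.169% over the 21 control libraries (median 0.104%). By reads, not corrected for transcript length, it ranked from 146 to 403 among the 1117 ORs in these libraries (median rank 260). The means of the 7 control groups lay between 0.0806% and 0.135%. By plain share, 6 of the 51 libraries exceeded the highest control, namely 5 of the 6 MTMT libraries and CPD replicate 2. This count depends on the denominator. Without the 10 most abundant ORs, 1% SBT replicate 1 (0.214%) and β-caryophyllene replicate 3 (0.197%) also exceeded the highest control (0.192%). These libraries did so with TMM effective sizes too. In 1% SBT replicate 1, *Olfr545* took 14.4% of the OR reads.

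After 100 μM MTMT the share of *Olfr1295* was 0.202%, 0.358% and 0.228% (212, 400 and 249 reads), against 0.0831%, 0.0760% and 0.0826% in the shared controls (52, 95 and 102 reads). Every exposed library was above every control library, and above each of the 21 controls of the series. The group means were 0.263% ± 0.0833 and 0.0806% ± 0.00396 (SD, n = 3 each). The fold change was 3.22 (log2 1.69 ± 0.26 SE; 95% interval of the fold from 2.22 to 4.66). This contrast is the one for which the receptor is known, so its value is given as a description without a test. In a single fit of all 51 libraries the log2 value was 1.70 with a larger SE of 0.46, and there no OR passed an adjusted p of 0.05, *Olfr1295* included (0 of 1102 by edgeR, 15 at an unadjusted p under 0.05). As background, 0.281% of the ORs tested (3 of 1068) had an adjusted p under 0.05 in the fit of 6 libraries, and 4.87% had an exposed group wholly above the controls. Among the ORs other than *Olfr1295*, *Olfr165* (log2 fold change 1.57) and *Olfr56* (1.21) were past that threshold.

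After 10 mM MTMT, in other mice, the shares were 0.0876%, 0.424% and 0.491% (60, 361 and 447 reads), against 0.0911%, 0.146% and 0.169% in their own controls (47, 103 and 85 reads). Replicates 2 and 3 lay above all controls, and in replicate 3 *Olfr1295* had rank 29 of 1117 by reads. Replicate 1 lay below its 3 controls. With all 6 libraries the fold change was 3.33 (log2 1.74 ± 0.60 SE; 95% interval of the fold from 1.32 to 8.42), with an unadjusted p of 0.016 and an adjusted p of 0.48, and 0% of the ORs tested passed (0 of 1054 by edgeR, with 69 at an unadjusted p under 0.05 and 15 by DESeq2). Without replicate 1 the fold change was 4.63 (log2 2.21 ± 0.31 SE; 95% interval from 2.89 to 7.44; adjusted p = 0.00248), where 3.64% of the ORs tested passed (38 of 1043). That library was doubted after its values had been seen, and *Olfr1295* was among the values seen. Within title prefixes, the ratio of mean shares was 2.16 where replicates 1 and 2 stood with 2 controls and 2.91 where replicate 3 stood with 1.

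The doses could not be separated for *Olfr1295*. The log2 fold change at 10 mM minus that at 100 μM, each against its own controls in one fit of 12 libraries, was 0.04 ± 0.68 (SE; 95% interval from −1.39 to 1.47; adjusted p = 1.00), and 0% of ORs passed (0 of 1083 by edgeR or DESeq2, with 68 at an unadjusted p under 0.05). Without 10 mM MTMT replicate 1 it was 0.49 ± 0.41 (95% interval from −0.36 to 1.34; adjusted p = 0.935), where 2.68% of ORs passed (29 of 1081). These intervals allow a difference in either direction.

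**Figure D2:**
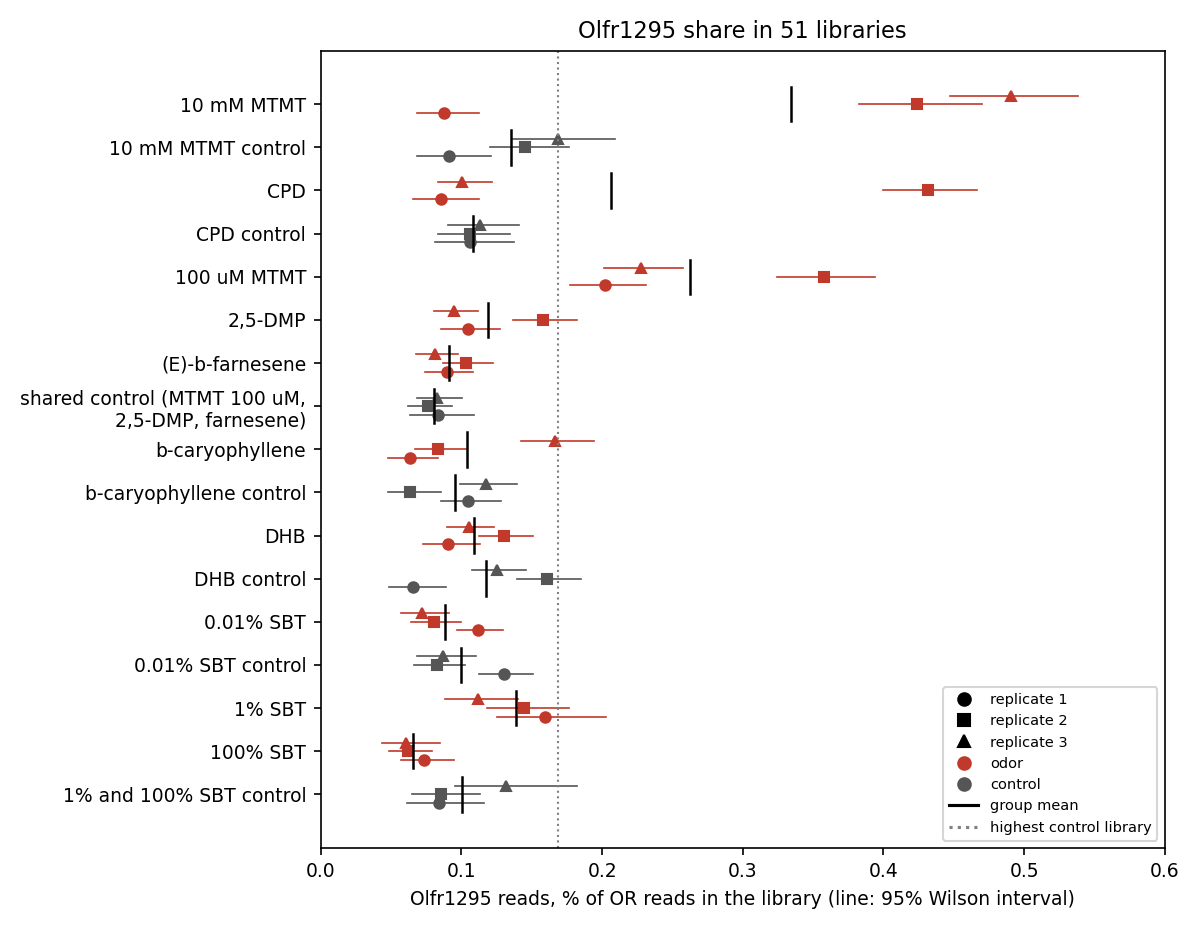
Share of OR reads taken by Olfr1295 in each of the 51 libraries (x axis, percent), by group (y axis), with 95% Wilson intervals as thin lines, group means as bars and the highest control library as a dotted line. The 3 libraries of 100 μM MTMT, replicates 2 and 3 of 10 mM MTMT and CPD replicate 2 lie to the right of that line.

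After CPD the shares were 0.0858%, 0.432% and 0.101% (52, 630 and 103 reads), against 0.106%, 0.106% and 0.113% in the controls (56, 67 and 78 reads). A single library was high, and the remaining 2 were below all 3 controls. The fold change over all 6 libraries was 2.25 (log2 1.17 ± 0.59 SE; adjusted p = 0.993), and 0% of the ORs tested passed (0 of 1050 by edgeR, with 40 at an unadjusted p under 0.05 and 1 by DESeq2). Without CPD replicate 2 it turned to 0.875 (log2 −0.19 ± 0.36 SE; 95% interval of the fold from 0.520 to 1.47; adjusted p = 0.999). In that reduced fit 0.0961% of the ORs passed (1 of 1041), namely *Olfr1437* (log2 fold change 3.34 ± 0.58 SE). Its share was among the values seen when CPD replicate 2 was doubted, so that value is a description. With the replicate number as a block the *Olfr1295* value was 0.66, and the ratio of mean shares was 2.44 within the title prefix that holds replicates 1 and 2 and 0.891 within that of replicate 3.

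After 2,5-DMP, a pyrazine of female urine, the shares were 0.104%, 0.158% and 0.0947% (98, 181 and 141 reads). All 3 were above the shared controls of 100 μM MTMT (0.0831%, 0.0760% and 0.0826%), as were 6.26% of the ORs tested. None exceeded the highest control of the series. The log2 fold change was 0.52 ± 0.25 (SE; 95% interval from −0.01 to 1.05; unadjusted p = 0.0523, adjusted p = 0.991). In that comparison 0.841% of the ORs passed (9 of 1070, or 17 with the replicate number as a block). The exact permutation test of log2 shares gave a two-sided p of 0.1, the smallest that 3 against 3 libraries allow. Any comparison whose exposed and control shares do not overlap reaches this value, as 100% SBT also did. Without 2,5-DMP replicate 2 the log2 fold change fell to 0.30.

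Because 100 μM MTMT and 2,5-DMP shared their controls, they were also set against each other. The study describes ethanol as the diluent of MTMT and water as that of 2,5-DMP, so odor and diluent cannot be told apart here. *Olfr1295* was 2.25-fold higher after 100 μM MTMT than after 2,5-DMP (log2 difference 1.17 ± 0.25 SE), with the lowest MTMT library (0.202%) above the highest 2,5-DMP library (0.158%). This is a description too, in a contrast where 1.66% of ORs passed (18 of 1085). Between 2,5-DMP and (*E*)-β-farnesene the log2 difference was 0.29 ± 0.25 (SE; 95% interval from −0.23 to 0.81; adjusted p = 0.934), where 3.13% passed (34 of 1085).

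In the other odor groups *Olfr1295* did not pass the test. (*E*)-β-farnesene, a terpene of male urine, gave 0.0894%, 0.103% and 0.0812% and a log2 fold change of 0.23 ± 0.25 SE (adjusted p = 0.992; 1.77% of ORs passed). β-caryophyllene gave 0.0634%, 0.0830% and 0.166%, against 0.104%, 0.0637% and 0.118% in its controls. Its log2 fold change was 0.20 ± 0.41 SE (adjusted p = 0.961), where 0% of 1048 ORs passed (0 by edgeR or DESeq2, 51 at an unadjusted p under 0.05). DHB gave 0.0907%, 0.130% and 0.105% against 0.0656%, 0.161% and 0.125%, a log2 fold change of −0.05 ± 0.31 SE (adjusted p = 0.993; 0.564% passed). Exposed and control libraries overlapped in these 3 comparisons.

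SBT, a thiazoline of male urine, was given at 3 doses, and *Olfr1295* passed the test at none of them. At 0.01% the shares were 0.112%, 0.0802% and 0.0722%, against 0.130%, 0.0825% and 0.0871%, a log2 fold change of −0.17 ± 0.30 SE (adjusted p = 0.999; 0.466% of ORs passed). At 1% they were 0.159%, 0.145% and 0.111%, against 0.0840%, 0.0857% and 0.132% in the controls shared with the highest dose. Replicates 1 and 2 lay above all 3 controls. The log2 fold change there was 0.61 ± 0.40 SE (95% interval of the fold from 0.837 to 2.79; adjusted p = 0.994; 0.863% passed), an interval that allows a rise of over 2-fold. In the same libraries *Olfr910* and *Olfr912*, known as receptors for SBT, rose by log2 2.88 and 2.63 (adjusted p = 0.0109 and 0.0115), and at 0.01% by 2.79 and 2.97.

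At 100% SBT the *Olfr1295* shares were 0.0735%, 0.0622% and 0.0608%, all below the 3 controls, as were those of 20.3% of the ORs tested. The log2 fold change was −0.20 ± 0.38 SE with TMM scaling (adjusted p = 0.85), and −0.60 with library totals alone (adjusted p = 0.317), a scaling that moved the median of all ORs from −0.08 to −0.47. In that comparison 11.3% of the ORs passed (119 of 1050).

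**Figure D3:**
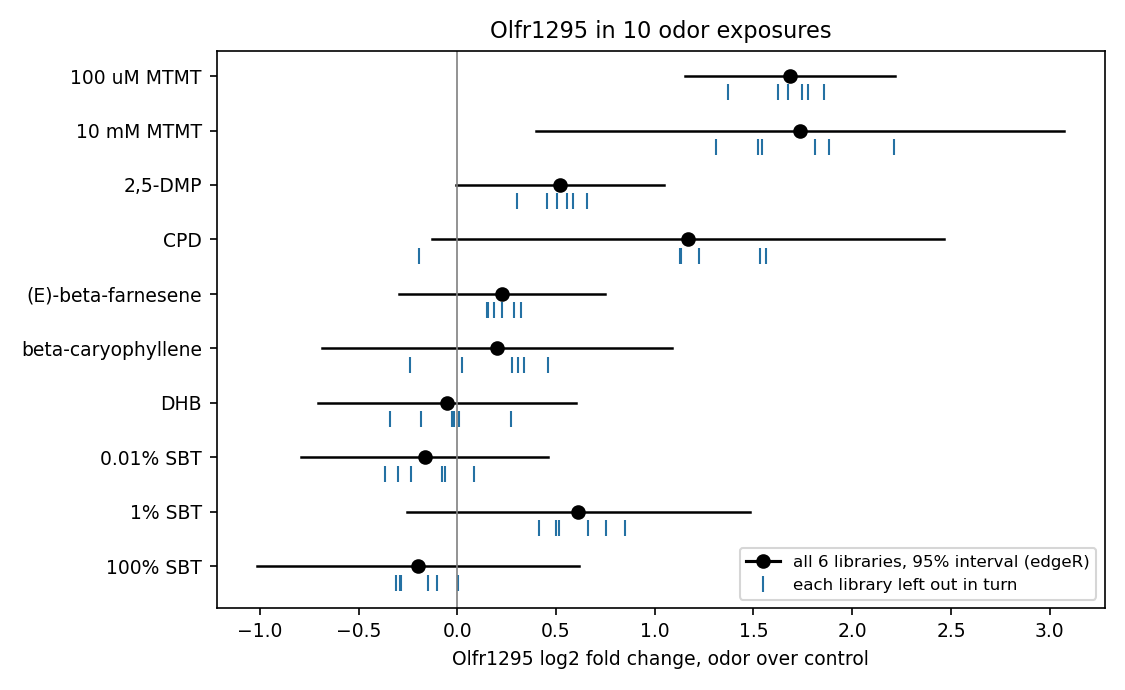
Log2 fold change of Olfr1295, odor over control, in 10 exposures (points, with 95% intervals from edgeR) and after leaving out each of the 6 libraries in turn (ticks). The 2 MTMT doses lie highest, at 1.69 and 1.74, and CPD moves from 1.17 to −0.19 without 1 library.

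In order of mean share the groups ran from 10 mM MTMT (0.334% ± 0.216) through 100 μM MTMT (0.263% ± 0.0833) and CPD (0.206% ± 0.196) to 1% SBT (0.138% ± 0.0245), and down to 100% SBT (0.0655% ± 0.00696; SD, n = 3 each). Neighbours in this order overlapped in every case but the last, where the shared controls of 100 μM MTMT (0.0806%) did not overlap with 100% SBT. The place of CPD in this order came from replicate 2 alone. Without it the CPD mean was 0.0932% (n = 2), below that of its controls (0.108%), and CPD moved to position 13 of 17. Without replicate 1 the 10 mM MTMT mean was 0.457% (n = 2). With that library and CPD replicate 2 both left out, 10 mM MTMT did not overlap with 100 μM MTMT, nor 100 μM MTMT with 1% SBT. Both libraries were doubted after their values had been seen. The plain shares of the 2 doses come from separate experiments, with control means of 0.135% for 10 mM and 0.0806% for 100 μM MTMT. Against their own controls the doses were not separated without replicate 1 (log2 difference 0.49, adjusted p = 0.935, in the contrast given above).

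The closest proteins and the neighbouring genes of *Olfr1295*, 8 receptors in all, were followed at both doses. At 100 μM MTMT 0 of the 8 passed edgeR's quasi-likelihood test (0.281% of all ORs did), and 0 passed by DESeq2. At an unadjusted p under 0.05 by edgeR there were 0 of the 8, beside 44 of all 1068 ORs tested. The log2 fold changes of the 8 ran from −0.17 to 0.77, with a median of 0.14 beside −0.01 over all ORs. *Olfr1298* had the highest of these values (0.77 ± 0.38 SE, unadjusted p = 0.0543). *Olfr1294*, the nearest protein, took 0.153%, 0.123% and 0.102%, against 0.122%, 0.103% and 0.0810% in the controls, and these groups overlapped.

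At 10 mM MTMT, *Olfr1294* took 0.0745%, 0.409% and 0.336%, against 0.126%, 0.112% and 0.105%. As with *Olfr1295*, replicates 2 and 3 were high and replicate 1 was not. With all 6 libraries 0 of the 8 passed by edgeR or DESeq2. At an unadjusted p under 0.05 by edgeR there were 4 of the 8, beside 69 of all 1054 ORs tested. The median log2 fold change of the 8 was 1.26, beside 0.03 over all ORs. Without replicate 1, 4 of the 8 rose, against 3.64% of all ORs, and the caution on leaving that library out holds here too, since the shares of *Olfr1294* had also been seen. These were *Olfr1294* (log2 2.15, adjusted p = 0.00181), *Olfr1302* (1.78, adjusted p = 0.0457), *Olfr1297* (1.76, adjusted p = 0.0171) and *Olfr1299* (1.60, adjusted p = 0.0109). *Olfr1298* did not pass (1.84 ± 0.49 SE, adjusted p = 0.0841), and *Olfr1290* (0.06), *Olfr1288* (−0.19) and *Olfr1289* (1.30 ± 0.83 SE) did not pass either.

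For 3 of these receptors the difference between 10 mM and 100 μM was past the threshold without replicate 1, against 2.68% of all ORs. They were *Olfr1294* (log2 difference 1.83, adjusted p = 0.00532), *Olfr1297* (1.68, adjusted p = 0.0444) and *Olfr1299* (1.62, adjusted p = 0.0487). *Olfr1295* itself gave 0.49 (adjusted p = 0.935), and it was not tested against these receptors. Replicate 1 was left out after its values had been seen, so these differences are descriptions. With replicate 1 none of the 1083 ORs passed the test of the difference, as given above. The sequences printed above are those of *Olfr1294* and *Olfr1298*, and their separate values at 100 μM MTMT are the counts of receptors that differ from *Olfr1295* by as few as 3 bases in 75.

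**Figure D4:**
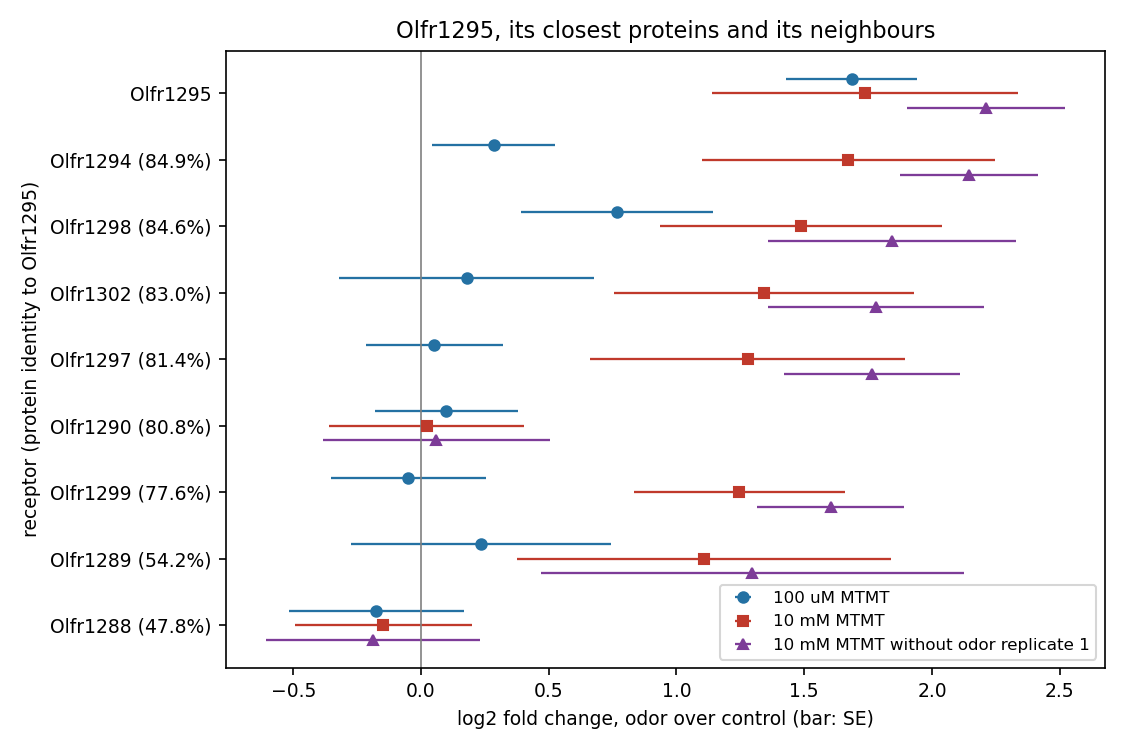
Log2 fold change, odor over control (x axis, with SE), of Olfr1295 and of the 8 receptors that are its closest proteins or lie within 100 kb, ordered by protein identity. At 100 μM MTMT Olfr1295 stands at 1.69 and the others between −0.17 and 0.77, and at 10 mM MTMT, with all 6 libraries, 5 of the others lie between 1.25 and 1.67.

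The receptors whose share varied most like that of *Olfr1295* over the 51 libraries were *Olfr224* (Pearson r = 0.78), *Olfr1209* (0.76), *Olfr330* (0.73), *Olfr31* (0.70) and *Olfr1294* (0.69), of 788 ORs with a mean of at least 20 reads. These values describe log2 shares of libraries that differ in depth and exposure. Over the 42 libraries left when the MTMT and CPD groups were set aside, the same 5 gave 0.16, 0.36, 0.24, 0.29 and 0.33. The 5 were picked by their r over libraries that include those 3 groups, so this fall cannot show where the likeness lay. Without 10 mM MTMT replicate 1 and CPD replicate 2 alone, 49 libraries gave 0.74, 0.71, 0.67, 0.64 and 0.62. As these receptors were picked for their pattern over libraries that include the MTMT groups, their values there are descriptions without a test. *Olfr224* took 0.124%, 1.55% and 1.54% after 10 mM MTMT, against 0.153%, 0.147% and 0.223% in the controls, and 1.26% in CPD replicate 2. After 100 μM MTMT it took 0.391%, 0.799% and 0.528%, against 0.147%, 0.288% and 0.259% (log2 fold change 1.29 ± 0.30 SE).

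*Olfr330* took 0.131%, 1.27% and 0.914% after 10 mM MTMT and 0.179%, 0.209% and 0.165% after 100 μM. Its replicates 2 and 3 of the higher dose lay above every library of the lower one, and replicate 1 lay below them. The log2 fold change of *Olfr330* was 3.15 ± 0.75 SE at 10 mM with all 6 libraries, 3.66 ± 0.35 SE without replicate 1 and 0.48 ± 0.23 SE at 100 μM.

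*Olfr165* and *Olfr56*, past the threshold at 100 μM MTMT, were also followed at the higher dose. *Olfr165* took 0.0887%, 0.129% and 0.0951% after 100 μM MTMT, against 0.0336%, 0.0376% and 0.0324%. After 10 mM it took 0.0204%, 0.153% and 0.104%, against 0.0659%, 0.0579% and 0.0239%. With all 6 libraries it did not pass there (log2 fold change 1.31 ± 0.67 SE, adjusted p = 0.877), and without replicate 1 the value was 1.80 ± 0.42 SE (adjusted p = 0.0420). In CPD replicate 2 it took 0.196%. *Olfr56* took 0.377%, 0.385% and 0.357% after 100 μM MTMT, against 0.130%, 0.203% and 0.143%, but 0.181%, 0.248% and 0.194% after 10 mM, within the range of those controls (0.155% to 0.271%). In CPD replicate 2 *Olfr56* took 0.191%, within the range of the CPD controls.

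*Olfr1509* (MOR244-3), known from work on cultured cells as a receptor for MTMT that needs copper, took a median of 0.201% in the controls and did not pass the test at either dose. It took 0.182%, 0.215% and 0.282% after 100 μM MTMT, against 0.201%, 0.280% and 0.199% (log2 fold change −0.03 ± 0.24 SE, adjusted p = 0.984). After 10 mM it took 0.165%, 0.368% and 0.205%, against 0.145%, 0.189% and 0.274% (log2 0.66 ± 0.40 SE, adjusted p = 0.898). Without replicate 1 the value was 0.95 ± 0.34 SE (adjusted p = 0.278). Its relatives *Olfr1507* and *Olfr1508* did not pass either, with log2 fold changes of −0.02 and 0.14 at 100 μM and 1.18 and 0.36 at 10 mM (1.56 and 0.65 without replicate 1, where neither passed).

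Of the musk receptors, *Olfr1437* alone was high outside the libraries named above. It took 6.29% of the OR reads in 10 mM MTMT replicate 3, where *Olfr235* (0.0286%) and *Olfr1440* (0.0472%) were at or below their control levels and *Olfr1295* was at its highest. In the same library *Olfr541* took 9.79%, the largest share of any OR there. A large share of 1 receptor lowers the shares of all others, and the *Olfr1295* value given for this library is a plain share.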

How the data were processed

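Ribosome-bound RNA was captured with a pS6 antibody from 51 whole olfactory mucosae, 1 library per mouse. Per the labels and methods, the authors aligned single reads with STAR to GRCm38 (GENCODE M25, with 1 OR gene model deleted) and quantified genes with RSEM. The deposited values are RSEM expected counts per gene and library, whole numbers that are not normalized, for 1117 OR genes in 10 tables. Totals are therefore OR reads, 27301 to 160001 per library, and shares are relative to them. The authors' own fold changes, CPM and p-values in these tables were not used. A table of a further odorant, 2-heptanone, was not used here, since its 6 per-sample columns match no sample label.

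The tests were quasi-likelihood F tests (glmQLFit, glmQLFTest; edgeR 4.0.16, R 4.3.3), two-sided, scaled by TMM factors of the OR genes. An OR entered a fit when it had 10 or more reads summed across that fit's libraries. The Benjamini-Hochberg adjustment ran across these ORs, and 0.05 was the threshold. Each odor was fitted with its own controls, and differences between odors or doses as contrasts over 12 libraries. An SE is the size of the log2 fold change divided by the square root of F. Alternatives were the replicate block, the title prefix, DESeq2 1.42.0, other scalings, filters and tests, a single fit and each library left out. A single fit without 2 libraries was added after seeing the data.

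Equal replicate numbers were called paired where the deviations of all 3 pairs of libraries from their group means correlated above 0.1 (7 of 10 comparisons, all but both MTMT doses and 0.01% SBT; r over all from 0.0193 to 0.395). The main fits used no pairing in any comparison, and the replicate block was run as an alternative in all of them. The study describes litter-matched mice, but the labels do not say what a number marks.

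The named ORs were *Olfr1295*, receptors known for SBT, musks and MTMT, ORs within 100 kb, the 5 closest proteins, ORs called at 100 μM MTMT, the 5 with the most similar shares (log2 of the share per 100000 reads plus 5), and the most abundant OR where it took over 5%. Gene positions, coding sequences and identities came from GENCODE M21 and RefSeq on GRCm38. The gene and these lists were chosen with earlier results of these data known.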

Additional observations from a re-analysis of the deposited data

How the results depend on the processing

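Of 172 alternative values of the tested *Olfr1295* log2 fold changes and differences, 152 kept direction and side of the threshold, 3 newly passed it and 17 changed sign. With 10 mM MTMT, a single fit of all libraries gave 1.69 (adjusted p = 0.0245). The same fit without 10 mM MTMT replicate 1 and CPD replicate 2 gave 2.21. That last fit was added after the *Olfr1295* values of these libraries had been seen, so its adjusted p is not read as a test. Over the other alternatives the adjusted p for 10 mM MTMT ran from 0.00248 to 0.968. The lowest was without replicate 1, a library doubted after its values had been seen. Leaving out each library gave 1.31 to 2.21, and of these fits the one without replicate 1 passed. CPD gave −0.16 in the single fit without the 2 libraries, and −0.19 to 1.56 with each library left out, the lowest being without CPD replicate 2. Other values that changed sign had lain near 0, namely DHB (0.0217 with the replicate block) and the dose difference (−0.23 with the replicate block, −0.40 without TMM factors, −0.00990 in the single fit). Leaving out 1 library gave −0.24 to 0.46 for β-caryophyllene, −0.34 to 0.27 for DHB, −0.36 to 0.0830 for 0.01% SBT, −0.31 to 0.00405 for 100% SBT and −0.43 to 0.49 for the dose difference. The cause was not tested. The replicate block changed no call of *Olfr1295* in the tested comparisons. The 34 alternative values of the contrasts described without a test, 100 μM MTMT against its controls and against 2,5-DMP, kept their direction and moved by less than the SD between replicates. The 100 μM MTMT value ran from 1.37 to 1.86 with each library left out. In the single fit of all libraries it was 1.70, but its SE rose from 0.26 to 0.46 and neither *Olfr1295* nor any other OR was past the threshold. Without 10 mM MTMT replicate 1 and CPD replicate 2 the single fit gave 1.68 with an SE of 0.32, and 3 of 1102 ORs passed. That fit was added after seeing the data and is not read as a test.

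Leaving the 10 most abundant ORs out of the denominator raises every share, so the direction was fixed in advance. Whether a rise exceeded the SD also depended on how small that SD was. Without these ORs, mean shares rose beyond their SD in CPD controls (0.126%), the shared 100 μM MTMT controls (0.0954%), (*E*)-β-farnesene (0.106%), 1% SBT (0.169%) and 100% SBT (0.0796%, also with TMM effective sizes). Library totals without TMM factors moved the median log2 fold change of all ORs from 0.03 to −0.28 for 10 mM MTMT, where *Olfr1295* then stood at 1.31.

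The number of ORs past the threshold changed by over 1.5 times from 3 to between 0 and 7 for 100 μM MTMT (0 in the single fit of all libraries), from 0 to at most 51 for 10 mM MTMT, from 0 to at most 2 for CPD, from 9 to at most 17 for 2,5-DMP, from 19 to as few as 8 for (*E*)-β-farnesene, from 5 to as few as 3 for 0.01% SBT, from 9 to between 0 and 28 for 1% SBT, from 0 to at most 29 for the dose difference and from 18 to as few as 9 for 100 μM MTMT minus 2,5-DMP. Depth limits the *Olfr1295* values most in the 1% and 100% SBT experiment, where its controls held 36 to 49 reads.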
